A study of Mus musculus with 7 samples.

Results

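The B lineage genes Cd79a, Cd79b, Ms4a1, Cd22, Pax5, Ebf1, Blnk, Rag1 and Rag2 were examined in activated CD8 T cells of mice labelled Rag-/-. Members were the non-control probes whose gene name in the scanner files equals one of these symbols. This gave 9 of the 23837 named genes on the array and 13 of its 55681 probes, measured by 24 of the 59305 non-control spots. All 7 arrays held mouse OT-1het Rag-/- CD8 T cells from lymph node, cultured for 24 h with 100 nM of the ovalbumin peptide SIINFEKL, for which the OT-1 T cell receptor is specific. The 4 WT arrays have no further alteration in the labels. The 3 Lck-/- arrays came from mice that lacked the T cell receptor kinase Lck and carried an inducible Lck, which had been switched off by 7 days without doxycycline. Doxycycline feeding of the WT mice is not given, so neither the construct nor the feeding can be told apart from the missing Lck. The labels write Rag-/- without saying which of the Rag genes was inactivated, and all 7 arrays share this background, so no Rag-sufficient array entered the comparisons.

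Rag1 and Rag2 form the recombinase that cuts antigen receptor gene segments in developing B and T cells. Without it neither lineage can assemble its own receptor and B cell development stops at the progenitor stage, while a transgenic receptor such as OT-1 still lets T cells mature. Ebf1 and Pax5 are the transcription factors that specify and commit B cell progenitors, Cd79a and Cd79b are the signalling chains of the B cell receptor, Blnk is the adaptor downstream of it, Cd22 is an inhibitory surface lectin, and Ms4a1 encodes CD20.

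The probes that carry the findings differ in sequence within a gene. Positions are given on mm9, as in the files, for the whole 60-base probe, and sequences are written in lower case. For Cd79a, one probe was well above background and the other was not. The brighter, A_55_P2137496, lies at chr7:25686823-25686882 on the plus strand. Its last 30 bases are shown, with the polyadenylation signal letters AATAAA in capitals, and they end in a run of 6 A. The dimmer, A_66_P120987, is placed at chr7:25684357-25684614 on the plus strand, a span of 258 bases, so its 60 bases cross a splice junction.
Cd79a A_55_P2137496, last 30 bases: gtgatAATAAAtccttcccaaagcaaaaaa
Cd79a A_66_P120987: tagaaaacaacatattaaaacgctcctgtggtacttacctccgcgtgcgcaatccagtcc
AATAAA, searched on the probe strand only, was in 10.1% of all probes, among them the Blnk probe, and a final run of 6 A was in 1.19%.

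For Cd79b, the brightest member, the first 30 bases are shown. This probe, A_51_P342652, lies at chr11:106172780-106172839 on the minus strand. For Cd22, bases 9 to 38 of A_55_P2016004 are shown because they hold the runs shared with other probes, which lie within bases 9 to 34, and the capitals mark a repeat inside all of those runs. This probe lies at chr7:31651249-31651308 on the minus strand and is 48.3% A, a share reached by 0.726% of all probes.
Cd79b A_51_P342652, first 30 bases: agagacttgttggaatctgcaaatggactc
Cd22 A_55_P2016004, bases 9 to 38: aaaaaCCAACCAACCAACCAAacaaaaaac

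Both Pax5 probes are shown whole, as the sequences behind near-background readings. The Rag2 probe shown whole is the one that was well above background on 3 arrays. Pax5 A_51_P122855 is placed at chr4:44550354-44582908 on the minus strand, a span of 32555 bases, so it joins separate exons. Pax5 A_55_P2126394 lies at chr4:44658421-44658480 on the minus strand, and Rag2 A_66_P105784 at chr2:101470723-101470782 on the plus strand.
Pax5 A_51_P122855: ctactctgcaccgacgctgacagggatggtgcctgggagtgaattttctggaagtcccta
Pax5 A_55_P2126394: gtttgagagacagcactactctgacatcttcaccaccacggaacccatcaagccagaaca
Rag2 A_66_P105784: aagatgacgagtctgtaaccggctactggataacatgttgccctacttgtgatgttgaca

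Each value is log2 of the scanner's processed signal minus the 75th percentile of that array, so 0 is the 75th percentile. A probe counts as well above background on an array when the scanner software marked at least as many of its usable spots so as not. The share of spots well above background ran from 46.6% on WT 1 to 61.1% on Lck-/- 1, and no spot was saturated. The 308 negative control spots had medians of -7.24 to -6.26, and the lowest value well above background lay between -5.12 and -4.02 by array. WT 3 had 1403 spots marked as non-uniform and Lck-/- 1 had 422, while the remaining arrays had 1 to 144. The Lck probe did not follow the labels. In order of replicate number, it read 7.44, 7.67, 7.36 and 6.04 under the WT label, and 8.02, 6.21 and 6.17 under the Lck-/- label. Whether this probe lies in the deleted part of the gene was not analysed here, so the arrays are named throughout by their labels. T cell markers were strong, with 7 of 7 CD8 T cell markers tested and a summed level of 484.5 to 800.62 times the 75th percentile. That sum covers 6 of the 7, as Cd3e had no usable value on WT 3. Of 6 defining B cell markers, Ms4a1 and Igkc were not well above background on any array, Ighm had no matching probe, and the summed level of the markers with a value on every array was 0.96 to 2.06, most of it from Cd79b.

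**Figure D1:**
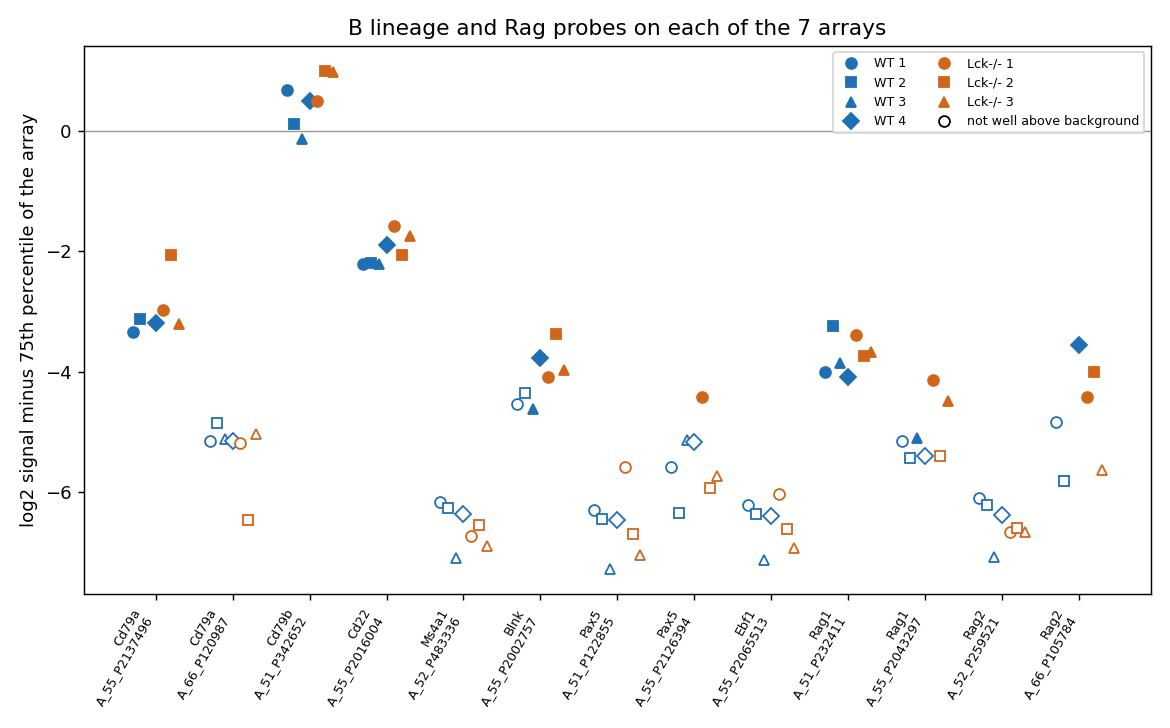
Signal of each of the 13 probes (horizontal axis) on each of the 7 arrays, as log2 of the processed signal minus the array's 75th percentile, with WT in blue and Lck-/- in orange. Filled symbols are values well above background and open symbols are not. Cd79b lies near 0 on every array, Cd22 near -2, and the probes for Ms4a1 and Ebf1 are open throughout.

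Of the 13 member probes, 3 were well above background on all 7 arrays, against 40.6% of all probes, and 5 were on none, against 32.8% of all probes. The background filter, at least 3 arrays well above background, was passed by 7 of the 13, against 52.4% of all probes. The 3 were those of Cd79b and Cd22 and 1 of the Rag1 probes, while the first Cd79a probe was well above on each of the 6 arrays where its spot was usable. The 5 were the second Cd79a probe, the Ms4a1 and Ebf1 probes and 1 probe each of Pax5 and Rag2. By array, 4, 4, 5 and 6 member probes were well above background on WT 1 to WT 4, and 8, 6 and 6 on Lck-/- 1 to Lck-/- 3. The highest count fell on Lck-/- 1, the array with the largest share of spots well above background. The part of array sensitivity in these counts was not tested.

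Cd79b, the immunoglobulin beta chain, was the one member at the level of the 75th percentile. It read 0.69, 0.13, -0.12 and 0.51 on WT 1 to WT 4, and 0.50, 1.01 and 0.99 on Lck-/- 1 to Lck-/- 3. Lck-/- 2 and Lck-/- 3 were above every WT array, and Lck-/- 1 lay within the WT range. The WT mean was 0.30 ± 0.37 (SD, n = 4). The Lck-/- mean was 0.83 ± 0.29 (SD, n = 3), and at least 99.4% of negative control spots were dimmer on every array.

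Cd79a, the immunoglobulin alpha chain and partner of Cd79b, gave a weaker reading. Probe A_55_P2137496 read -3.35, -3.13 and -3.20 on WT 1, WT 2 and WT 4, and -2.97, -2.06 and -3.21 on Lck-/- 1 to Lck-/- 3. Its single spot on WT 3 was marked as an outlier and left out. All 6 readings were well above background, Lck-/- 2 was the highest, and the groups overlapped. Probe A_66_P120987 read -5.15, -4.86, -5.12 and -5.16 in WT and -5.20, -6.48 and -5.05 in Lck-/-. None of these was well above background, although the scanner's weaker test marked all 7 as significantly above it. In bulk RNA, fewer cells of a type and less RNA per cell cannot be told apart for any of these genes.

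Cd22, an inhibitory co-receptor of B cells, was well above background on all 7 arrays. It read -2.21, -2.19, -2.22 and -1.90 in WT and -1.57, -2.06 and -1.74 in Lck-/-. Lck-/- 1 and Lck-/- 3 were above every WT array, whereas Lck-/- 2 lay below WT 4. The probe shares runs of at least 20 bases with 4 other probes. On the same strand, that of Gm8479 shares 20 bases, read -2.39, -2.22, -1.95 and -2.09 in WT and -1.58, -1.92 and -1.83 in Lck-/-, and correlated with the Cd22 probe at r = 0.793 over 7 arrays of shared processing. On the opposite strand, the Fgfr1 probe shares 22 bases and correlated at r = -0.163. The Ercc6l2 probe, also on the opposite strand, shares the longest run, 26 bases. The other same-strand probe, for Banp, shares 20 bases. Those of Ercc6l2 and Banp had no usable value on WT 3 and no correlation was computed for them. The part of shared sequence in the Cd22 reading was not tested.

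Ms4a1, the CD20 gene carried by mature B cells, was on no array well above background. Its probe (A_52_P483336, chr19:11325367-11325426, minus strand) read -6.16, -6.28, -7.10 and -6.37 in WT and -6.74, -6.55 and -6.91 in Lck-/-. On all 7 arrays these are surrogate values that the scanner software sets for dim spots, so they have no order. Between 72.7% and 86.4% of negative control spots were dimmer.

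Blnk, the adaptor that links the B cell receptor to downstream enzymes, lay at the detection limit. Its probe (A_55_P2002757, chr19:41003426-41003485, minus strand) read -4.54, -4.36, -4.62 and -3.78 in WT and -4.09, -3.38 and -3.97 in Lck-/-. It was well above background on WT 3 and WT 4 but not WT 1 or WT 2, and on all 3 Lck-/- arrays. Lck-/- 2 was the highest, and WT 4 exceeded the other Lck-/- arrays.

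Ebf1, which opens the B cell programme, was not well above background on any array. Its probe (A_55_P2065513, chr11:44818438-44818497, plus strand) read -6.22, -6.37, -7.13 and -6.41 in WT and -6.03, -6.62 and -6.94 in Lck-/-, and 6 of these are surrogate values. The exception, Lck-/- 1, was significantly above background by the weaker test.

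Pax5, which maintains B cell commitment, gave 1 reading well above background among 14. Probe A_51_P122855 read -6.31, -6.46, -7.29 and -6.47 in WT and -5.59, -6.70 and -7.06 in Lck-/-, with 6 surrogate values. Probe A_55_P2126394 read -5.59, -6.36, -5.14 and -5.17 in WT and -4.43, -5.94 and -5.74 in Lck-/-. Both probes were highest on Lck-/- 1, where the second was well above background. That array also had the largest share of spots above background, whose part in the reading was not tested.

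Rag1, the catalytic subunit of the recombinase, had readings above background on every array. Probe A_51_P232411 (chr2:101478813-101478872, minus strand) was well above background in 12 of its 14 spot readings. Its array means were -4.01, -3.24, -3.86 and -4.08 in WT and -3.39, -3.74 and -3.67 in Lck-/-. WT 2 was the highest array, and its 2 spots lay 0.15 to 0.42 apart on each array. Probe A_55_P2043297 (chr2:101481051-101481110, minus strand) read -5.15, -5.45, -5.11 and -5.41 in WT and -4.14, -5.41 and -4.50 in Lck-/-, with 3 of 14 spot readings well above background. Of its dimmer spots, those on WT 1, WT 2 and WT 4 were surrogate values and none was on the Lck-/- arrays. Its 2 spots lay 0.71 to 2.05 apart, and the same spot was the brighter on all 7 arrays.

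Rag2, the partner subunit, was near the negative controls by 1 probe and uneven by the other. Probe A_52_P259521 (chr2:101472445-101472504, plus strand) is printed in 10 spots, and 0 of its 70 readings were well above background. Its array means were -6.11, -6.23, -7.09 and -6.39 in WT and -6.67, -6.60 and -6.67 in Lck-/-, of which 56 of the 70 readings were surrogate values. Probe A_66_P105784, shown above, read -4.83, -5.82 and -3.56 on WT 1, WT 2 and WT 4 and -4.42, -4.01 and -5.64 on Lck-/- 1 to Lck-/- 3. Its WT 3 spot was marked as an outlier and left out. It was well above background on WT 4, Lck-/- 1 and Lck-/- 2, and the highest and the lowest readings were both WT. A probe signal shows RNA that binds those bases and does not tell a functional transcript from a remnant of an inactivated gene.

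**Figure D2:**
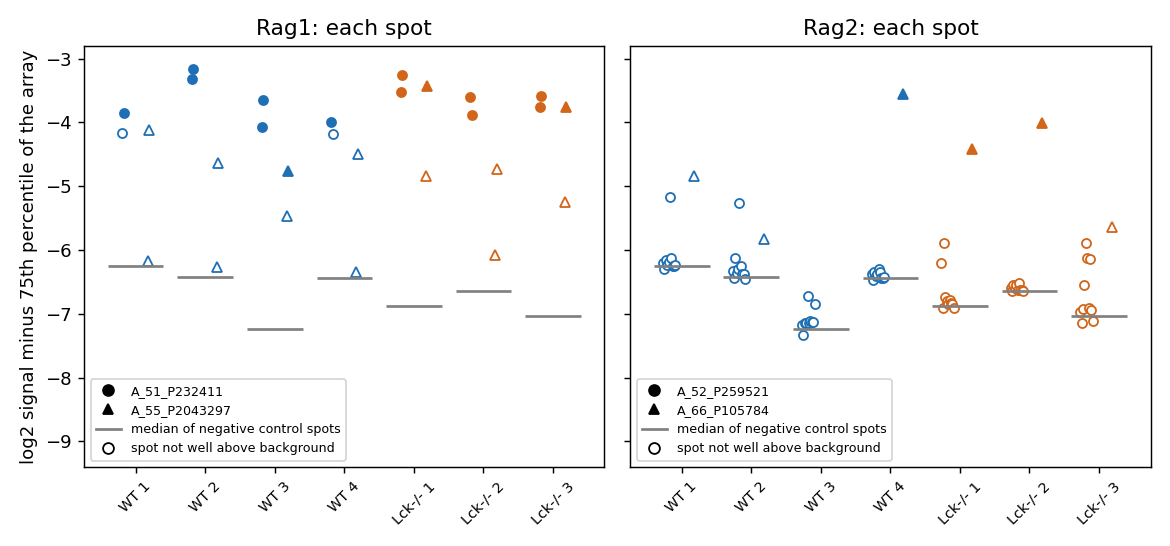
Every usable spot of the Rag1 probes (left) and Rag2 probes (right) by array, as log2 signal minus the array's 75th percentile. Circles and triangles are the 2 probes of each gene, filled symbols are well above background, and grey lines are the median negative control spot. Most Rag2 circles lie near the grey lines, a few lie about 1 log2 unit above them, and the triangles of Rag1 are split into a brighter and a dimmer spot on each array.

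The arrays labelled Lck-/- were then compared with those labelled WT. Of the 9 members, 6 passed the filter of at least 3 arrays well above background and entered the limma fit over 14705 genes. Ms4a1, Ebf1 and Pax5 did not pass. At an adjusted p under 0.05, limma called 0 of the 6, and 0% of all genes. At an unadjusted p under 0.05 it called 0 of the 6, against 7.15% of all genes, and 1 or 2 of them in 10 of 17 alternative fits, most often Cd79b. Over all genes, 1051 had such a p in this fit and 648 to 1607 in the alternatives, which tested 12375 to 23837 genes. No member's probe separated the groups without overlap, against 7.23% of genes. All 6 differences were above 0, against 57.4% of genes. With each array's median as reference, which moves the median difference of all genes from 0.04 to -0.16, 4 of the 6 were above 0, against 25.7% of genes, and those of Rag1 and Rag2 turned below 0.

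Cd79b was higher by 0.53 (log2, SE 0.24, 95% interval -0.01 to 1.08) in the arrays labelled Lck-/-, with a limma adjusted p of 0.704. For Cd79a the difference was 0.48 (SE 0.30, interval -0.24 to 1.19, limma adjusted p 0.812). For Blnk it was 0.51 (SE 0.26, interval -0.08 to 1.11, limma adjusted p 0.748), and for Cd22 0.34 (SE 0.17, interval -0.05 to 0.73, limma adjusted p 0.742). These 4 intervals all include 0 and reach a log2 difference of 0.726 or more, so a difference of 0.726 in Lck-/- is not outside any of them. Without Lck-/- 2, the differences were 0.13 for Cd79a and 0.30 for Blnk. Rag1 differed by 0.20 (SE 0.23, limma adjusted p 0.918) by its brighter probe and by 0.60 (SE 0.29, limma adjusted p 0.755) by the other, whose 2 spots lay farther apart than that on every array and included 3 surrogate values, all in WT. Rag2 differed by 0.05 with an interval of -1.46 to 1.56 (limma adjusted p 0.998), so its direction was undetermined. Lck itself differed by -0.32 (interval -1.58 to 0.94).

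**Figure D3:**
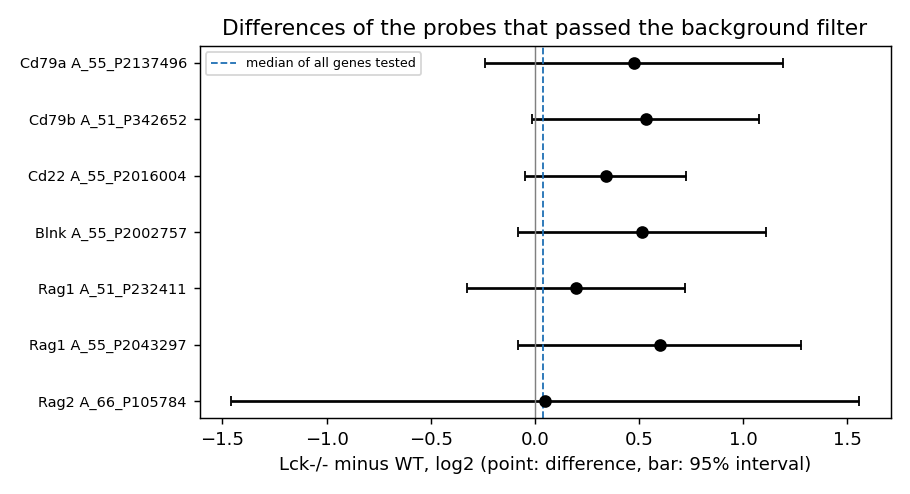
Log2 difference, Lck-/- minus WT, for the 7 probes of the 6 tested members (points), with 95% intervals from limma (bars) and the median of all genes tested (dashed line). Every interval includes 0. That of Rag2 is the widest of those plotted, from -1.46 to 1.56.

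Without the arrays labelled WT 4 and Lck-/- 1, whose Lck signal went against their labels, limma still called 0 of the 6 members, while its calls over all genes rose from 0 to 56. Cd79b and Blnk then had unadjusted limma p-values under 0.05, as had 1607 of the 14705 genes, against 1051 with all arrays. Several marker lists of other cells leaned higher in the arrays labelled Lck-/-, read against the 57.4% of all genes with a difference above 0. All 9 NK cell markers tested were higher, by a median of 0.95, with summed levels of 8.35 to 15.42 in WT and 14.14 to 16.57 in Lck-/-. The sums cover 8 of these genes, as Fcer1g, which read -0.36 to 1.66 elsewhere, had no usable value on WT 3. Itgam, which myeloid cells also express, made up most of that sum on every array, and without it the sums were 0.84 to 4.35 in WT and 1.86 to 6.78 in Lck-/-. All 8 conventional dendritic markers tested were higher, by a median of 0.45, with summed levels of 7.82 to 16.79 and 13.05 to 22.60, while Xcr1, Clec9a and Cd209a were well above background on no array. The plasmacytoid dendritic list had 5 members higher and 3 lower, with a median of 0.16. The monocyte and macrophage list had 5 of 6 tested members higher, with summed levels of 0.46 to 1.02 in WT and 0.43 to 1.48 in Lck-/-. All 7 CD8 T cell markers were higher too, by a median of 0.38. Of 6 stroma markers, the 3 tested were all higher, by a median of 0.40. Their list had summed levels of 0.55 to 0.81 in WT and 0.71 to 1.05 in Lck-/-, highest on Lck-/- 3. By summed level, the NK, conventional dendritic and monocyte lists stood highest on Lck-/- 2, where Cd79a, Cd79b and Blnk were highest. For Cd79b the margin was small, at 1.01 against 0.99 on Lck-/- 3. The plasmacytoid sum was highest on Lck-/- 1, at 316.5 against 232.61 on Lck-/- 2. Siglech, which read 8.04 and 7.33 there, made up most of that sum on both arrays. By mean log2 over its tested genes usable on every array, the plasmacytoid list was higher on Lck-/- 2. It stood 0.47 above the WT mean there and 0.25 above it on Lck-/- 1. The monocyte sum leaves out Csf1r and Cd68, which had no usable value on WT 3. Csf1r read 0.55 on Lck-/- 2, against 2.54 on Lck-/- 3 and 2.19 on WT 2, while Cd68 was highest on Lck-/- 2, at 1.12. The part of other cells in the Cd79a, Cd79b and Blnk readings was not tested. None of these marker genes passed the adjusted threshold.

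The genes around the members in the pathway were read in 5 lists of 65 genes, whose counts stand beside 57.4% of all genes higher (25.7% with the median as reference) and 7.15% at an unadjusted p under 0.05. Among 15 other early B lineage genes, 12 were tested, 9 were higher and 3 lower in Lck-/-, and 0 passed limma's adjusted threshold, with 1 at an unadjusted p under 0.05. Their median difference was 0.15. Those with the highest mean, the T cell-expressed factors Lef1 and Foxo1, differed by -0.00 (SE 0.26) and 0.13 (SE 0.15). Igll1, a surrogate light chain, and the factor Erg were well above background on no array. Chosen after their values were seen, Vpreb1, another surrogate light chain, was well above background on all 7 arrays, and so was Dntt. Dntt encodes the polymerase that adds nucleotides at receptor gene joins. It read -1.73, -1.82, -1.74 and -1.81 in WT and -0.89, -1.60 and -0.71 in Lck-/-. Its groups did not overlap, with a difference of 0.71 (SE 0.22, limma adjusted p 0.603).

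Of 18 mature B cell surface molecules and regulators, 14 were tested, 9 were higher and 5 lower (57.4% of all genes were higher), 0 passed limma's adjusted threshold and 3 had an unadjusted p under 0.05 (7.15% of all genes). Cd37, a leukocyte tetraspanin, and Cd74, the MHC class II invariant chain, were the brightest, with differences of 0.32 (SE 0.34) and 0.03 (SE 0.30). Cd72, an inhibitory receptor named after its values were seen, differed by 1.03 (SE 0.25, limma adjusted p 0.586). Fcrla and Fcrl1 were well above background on no array. Neither of the immunoglobulin genes with a matched probe, Igkc and Jchain, was well above background on any array.

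Among 16 B cell receptor signalling genes, many of them shared with T cell receptor signalling, 15 were tested, 11 were higher and 4 lower. None passed limma's adjusted threshold and 3 had an unadjusted p under 0.05 (7.15% of all genes). Pik3cd, the leukocyte phosphoinositide kinase subunit, differed by 0.51 (SE 0.21) and Vav1, an exchange factor, by 0.18 (SE 0.19). Lyn, the Src family kinase of B cells, was on no array well above background. All 10 recombination and end joining genes were tested, 4 were higher and 6 lower, and 0 passed at either p. The DNA-bending proteins Hmgb2 and Hmgb1, cofactors of Rag cleavage, differed by -0.48 (SE 0.45) and -0.19 (SE 0.22).

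**Figure D4:**
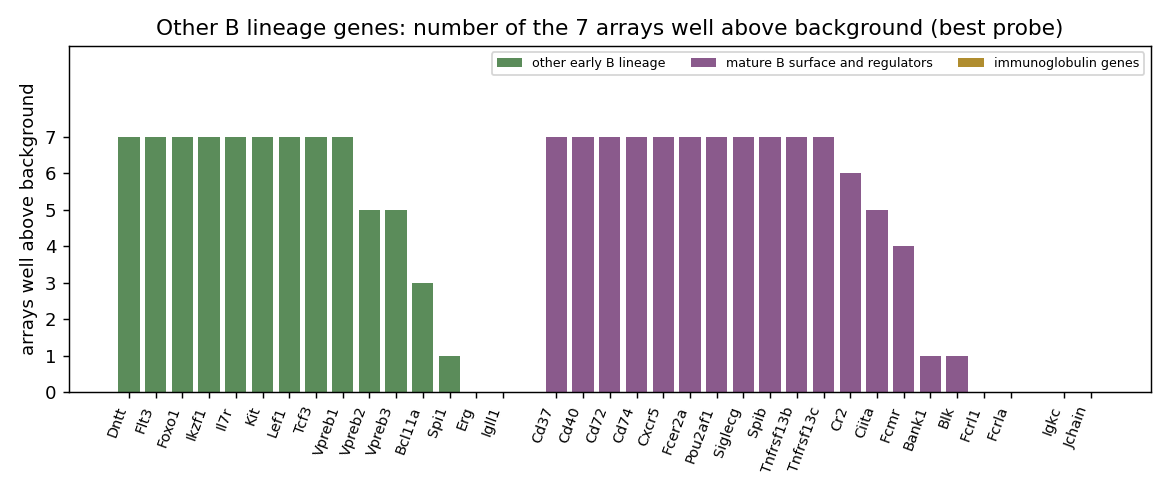
Number of the 7 arrays (bars) on which the best probe of each gene was well above background, for the other early B lineage, mature B and immunoglobulin lists. Dntt, Vpreb1 and Cd72 reach 7, while Igll1, Igkc and Jchain stand at 0.

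The genes whose 7 values were most like each member's were found among 12210 genes well above background on all arrays. For Cd79b these were Fcho1 (r = 0.986), Gbp9 (r = 0.985) and Epsti1 (r = 0.984). For Cd22 they were Gm11213, Gm14393 and Rcor3, at r = 0.985 to 0.973. For Rag1 they were Gm2581 (r = 0.97), Ildr2 and Gm13035. The 7 points share slide and scaling, and correlations this high are picked from many genes.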

How the data were processed

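Spot intensity in the deposited scanner files was extracted by Agilent Feature Extraction 10.7.3.1, per the file headers, with background subtraction, detrending and surrogate values for dim spots. The authors' deposited table holds log2 values that correlated with the log2 spot median signal of the same array. How its arrays were normalized was not given in the sources used here. Its medians ran from 6.63 to 6.67, and it served only as an alternative. Per the submitters' processing notes, limma was used.

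From the processed intensity, log2 minus the 75th percentile over non-control spots was computed per array. Outlier spots were dropped, spots of a probe averaged, and a gene was read by its brightest passing probe, where passing meant well above background on at least 3 of 7 arrays. Names came from the files, or from the GRCm38.p6 gene table by accession (27235 probes), symbol (3581) or synonym (565), and 1580 kept the file's name. The groups, 4 and 3 arrays, were compared with limma 3.58.1 in R 4.3.3 (lmFit, eBayes, two-sided, Benjamini-Hochberg, threshold 0.05). In a test on simulated data of 12375 genes, it recovered 58% of changes of log2 size 1 and 95% of size 2, with 6 false calls. The noise was independent and normal, with spreads taken from genes well above background on all 7 arrays. Readings near background, left-out spots and doubtful labels were not simulated. All arrays shared 1 slide and 1 scan setting. The series' own text calls the arrays biological replicates.

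One list gene is not reported here. Members and lists were chosen with earlier results of these data known. Genes named are the members, the 2 brightest tested genes of each list without calls, the 3 most correlated with members on all arrays, and Lck. Other genes, such as those undetected in a list, those sharing probe sequence and those of the closing observations, were named after their values were seen. The number of arrays limits the precision. The 18 alternatives covered filters, normalization, background correction, probe choice, the title number as block and arrays left out.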

Additional observations from a re-analysis of the deposited data

Results flagged for a closer look

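In 4 of the 23 groups of WT arrays examined for a sample far from the others, 1 array stood apart by Dixon's test for 4 samples, which divides the gap to the nearest array by the range. Chance marks about 1 in 20 such groups. For Cd22, WT 4 stood above the other WT arrays with a ratio of 0.921. For the Cd79a probe A_66_P120987, WT 2 stood above the others at 0.857, and none of those readings was well above background. For the Pax5 probe A_51_P122855, WT 3 stood below the others at 0.834, among surrogate values that follow each array's background. For the summed monocyte and macrophage markers, WT 2 stood above the others at 0.904.

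On WT 3, the spots left out as outliers were far above the readings of the same probes elsewhere. The Cd79a spot (A_55_P2137496) would have read 0.66, against -3.35 to -2.06 on the other arrays. The Rag2 spot (A_66_P105784) would have read 0.68, against -5.82 to -3.56. WT 3 had 1403 spots marked as non-uniform, the most of the 7 arrays.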

How the results depend on the processing

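In all 17 alternative fits limma called 0 members, and the differences of Cd79a, Cd79b, Cd22 and Blnk stayed above 0 wherever they were tested. Over these, Cd79a ranged from 0.13 to 0.72, Cd79b from 0.33 to 0.77, Cd22 from 0.11 to 0.48 and Blnk from 0.098 to 0.83. In 10 of the fits, where 751 to 1607 of all genes tested had an unadjusted limma p under 0.05, so had 1 or 2 members. These were Cd79b with quantile normalization, normexp, the deposited values, the filter on all 7 arrays, without WT 1 and without Lck-/- 1, Cd22 without Lck-/- 2, Blnk without WT 4, Blnk and Rag2 with the replicate block, and Cd79b and Blnk without both doubtfully labelled arrays. The Rag2 difference of 0.05 turned to -0.33 with quantile normalization, -0.14 with the median as reference, -0.059 with normexp and -0.12 in the deposited values, ranged from -0.49 (without WT 2) to 0.64 (without WT 4) with 1 array left out, and was -0.09 without Lck-/- 1 and -0.29 without Lck-/- 2. Rag1 was -0.0068 with the median as reference and -0.0036 without WT 4 and Lck-/- 1, the arrays with Lck signal contrary to their labels. Calls over all genes, 0 at first, were 1 with the replicate block (Klra15), 0 to 1 with 1 array left out (Xist, without WT 1) and 56 without both those arrays. Genes at an unadjusted p under 0.05 fell from 1051 to 648 without Lck-/- 3 and rose to 1607 without both. With the median as reference, list medians were -0.036 (early B lineage), -0.14 (mature B), -0.11 (signalling) and -0.27 (recombination), and all genes shifted with them. The mature B median of 0.07 was 0.20 with the replicate block, 0.38 without both arrays and -0.066 (without Lck-/- 2) to 0.28 (without Lck-/- 3) with 1 left out. It was 0.20 without WT 4, the same estimate as with the block, and 0.25 without Lck-/- 1. The cause of these shifts was not tested.

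Arrays of the same title number correlated in their deviations at 0.19, 0.0972 and -0.0084, so the numbers were not taken as pairs, and the replicate block called 0 members, with Rag2 at 1.11. By the weaker significance flag, 9 member probes were above background on WT 1 and on WT 2, against 4 each. The share of all probes with that flag was not computed. Slide as a block could not be fitted with 1 slide. Probes not well above background and surrogate values limit what can be said of Ms4a1, Ebf1, Pax5 and Rag2.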

Other observations

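Blk, a Src family kinase of B cells outside the tested genes, was well above background on WT 2 alone, at -0.36, against -7.04 to -3.97 on the other arrays. Of 9 probes named for immunoglobulin variable genes, 4 were well above background on no array, against 32.8% of all probes. On all 7 arrays 2 of them were, against 40.6% of all probes.

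The spots of the Rag1 probe A_55_P2043297 kept their order on all 7 arrays. The dimmer spot was a surrogate value on WT 1, WT 2 and WT 4 and on no Lck-/- array, so its mean has no use as a level. The brighter spot averaged -4.50 in WT and -3.97 in Lck-/-.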
